A study of Mus musculus with 12 samples.

Results

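The BCL-2 family was described here through 10 genes fixed by name, Bcl2, Bcl2l1, Mcl1, Bcl2a1d, Bax, Bak1, Bcl2l11, Bid, Bmf and Bbc3, out of 38215 genes in the count table. Every exon bin of Mcl1, Bcl2l1 and Bcl2l11 was described as well, which were 49 of 354841 bins, a bin being an exon or the part of an exon that annotated transcripts share. All 10 genes were among the 14983 genes tested, and 37 of the 49 bins were among the 153624 bins tested. The RNA came from RAW264.7, a mouse macrophage cell line of the BALB/c strain, transfected with either non-targeting control siRNA or SF3a1 siRNA. SF3a1 is a subunit of the U2 snRNP, the part of the spliceosome that recognises the branch point. Each siRNA was given for 24 h, and cells were then left without LPS or exposed to 20 ng/ml LPS, the bacterial lipopolysaccharide that TLR4 recognises, for 4 h. Crossing the siRNA with LPS made 4 groups of 3 libraries each. Bin counts came from 11 of the 12 libraries, replicate 3 of the group with control siRNA and LPS having no bin counts here. All groups went through transfection, none was left untransfected, and a single cell line stood for macrophages. The sources give 3 replicates per group without saying whether they were separate experiments, so the p-values measure the spread between these samples.

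BCL-2 proteins decide whether the outer mitochondrial membrane stays intact. Guardians such as BCL-2, BCL-xL (from Bcl2l1), MCL-1 and A1 (from the Bcl2a1 genes) hold the effectors BAX and BAK in check, and BH3-only proteins such as BIM (from Bcl2l11), BID, BMF and PUMA (from Bbc3) relieve that restraint. In macrophages, TLR4 signalling through NF-κB is known to induce several guardians. Mcl1, Bcl2l1 and Bcl2l11 are textbook cases of alternative splicing: leaving out the second exon of Mcl1 gives a short protein that promotes death, an internal 5′ splice site of Bcl2l1 gives the short BCL-xS in place of BCL-xL, and optional coding stretches of Bcl2l11 separate the long and short forms of BIM.

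Coding stretches that set these protein forms apart are shown first. They were read from the mm10 genome with GENCODE vM21 transcripts, 5′ to 3′ on the plus strand. The second exon of Mcl1 (bin 5, chr3:95659761-95660008, 248 bases, in both annotated coding transcripts) is the one whose loss gives the short protein. Bin 3 lies inside the first exon of Mcl1 (chr3:95658909-95659046, 138 bases or 46 codons). Transcript Mcl1-202 leaves it out, although its ends are not the GT and AG of a usual intron and 85.5% of its bases are G or C.
Mcl1 bin 5: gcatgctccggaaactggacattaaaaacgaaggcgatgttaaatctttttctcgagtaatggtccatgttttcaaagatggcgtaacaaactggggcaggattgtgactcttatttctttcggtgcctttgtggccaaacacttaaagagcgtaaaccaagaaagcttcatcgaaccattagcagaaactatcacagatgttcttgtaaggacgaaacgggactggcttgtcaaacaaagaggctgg
Mcl1 bin 3: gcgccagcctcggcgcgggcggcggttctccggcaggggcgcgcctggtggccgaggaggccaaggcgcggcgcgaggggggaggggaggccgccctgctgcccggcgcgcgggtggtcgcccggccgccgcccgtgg

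For Bcl2l11, bin 9 (chr2:128128757-128128924, 168 bases or 56 codons) is coding in the longest form, Bcl2l11-205, and is left out of the other coding transcripts. Its first and last bases are GT and AG, shown in capitals. Bin 10 (chr2:128128925-128129014, 90 bases or 30 codons) follows it directly and is skipped whole, together with bin 9, in Bcl2l11-201 and Bcl2l11-204. It encodes the stretch by which the longer forms of BIM bind dynein light chain.
Bcl2l11 bin 9: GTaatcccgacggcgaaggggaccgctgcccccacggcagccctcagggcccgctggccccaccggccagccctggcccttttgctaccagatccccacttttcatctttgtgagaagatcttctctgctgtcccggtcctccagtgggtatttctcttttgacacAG
Bcl2l11 bin 10: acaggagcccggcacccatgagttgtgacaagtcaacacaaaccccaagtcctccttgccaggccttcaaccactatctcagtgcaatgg

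Libraries held 12746019 to 41091887 reads on genes, and replicate 1 was the deepest of each group. Reads that fell on no gene made up 18.21, 19.63 and 17.85% with control siRNA and 27.2, 21.56 and 20.83% with SF3a1 siRNA, and under LPS 19.83, 19.3 and 17.75% and 19.91, 18.2 and 21.37%. Without LPS every SF3a1 siRNA library stood above the controls, replicate 1 furthest, and under LPS the groups overlapped. The part of this share in the results was not tested. Levels are given as CPM, the read count scaled to the depth of its library with edgeR's TMM factors, in the order of replicates 1, 2 and 3. Sf3a1 itself stood at 173, 216 and 185 CPM with control siRNA without LPS and at 27.1, 27.5 and 32.1 CPM with SF3a1 siRNA. With LPS it stood at 150.0, 194 and 157 CPM with control siRNA and at 30.3, 26.7 and 45.0 CPM with SF3a1 siRNA. SF3a1 siRNA thus left 15.1% of the message without LPS and 20.4% with LPS, with no overlap between groups (edgeR quasi-likelihood test, adjusted p = 1.14e-05 and 1.47e-05). The 10 macrophage markers examined summed to 9902 to 16517 CPM per library, with Lyz2 the most abundant (4979 to 9895 CPM), although Mrc1, a marker of tissue macrophages, stayed at 0 to 0.963 CPM. The 12 markers of T cells, B cells, fibroblasts and epithelium summed to 0.111 to 0.605 CPM, with Cd79a the highest at 0 to 0.363 CPM. In such bulk RNA, fewer cells with a message and less message per cell cannot be told apart.

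Per kb of exon, Bax had the highest level among the 9 genes with a known exon length in control siRNA cells without LPS (248 ± 58.1 CPM per kb, mean ± SD, n = 3). It was followed by Bak1 (149 ± 18.4), Mcl1 (127 ± 10.9), Bid (32.6 ± 2.71), Bcl2l1 (7.89 ± 1.19), Bbc3 (6.66 ± 1.15), Bmf (5.47 ± 2.33), Bcl2l11 (3.41 ± 0.88) and Bcl2 (1.24 ± 0.30 CPM per kb). Neighbours whose ranges of mean ± SD overlapped were Bak1 and Mcl1, Bcl2l1 and Bbc3, Bbc3 and Bmf, and Bmf and Bcl2l11. With LPS, Bcl2l1 stood at 63.0 ± 6.68 CPM per kb, above Bid at 42.3 ± 4.31, while the ranges of Mcl1 (227 ± 35.9) and Bak1 (162 ± 41.9) overlapped. Bcl2a1d was left out of this order because its exon length was not at hand. The length of Bak1 is uncertain, since its counts have 15 bins and the annotation used here gives 14. For Bax, Bcl2 and Bbc3 the full annotation gives 17, 4 and 9 bins, where the counts have 6, 2 and 8. Leaving out 5, 1 and 1 transcripts made the numbers of bins match. The lengths of these genes, the first place of Bax and the positions of their bins rest on that choice.

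**Figure D1:**
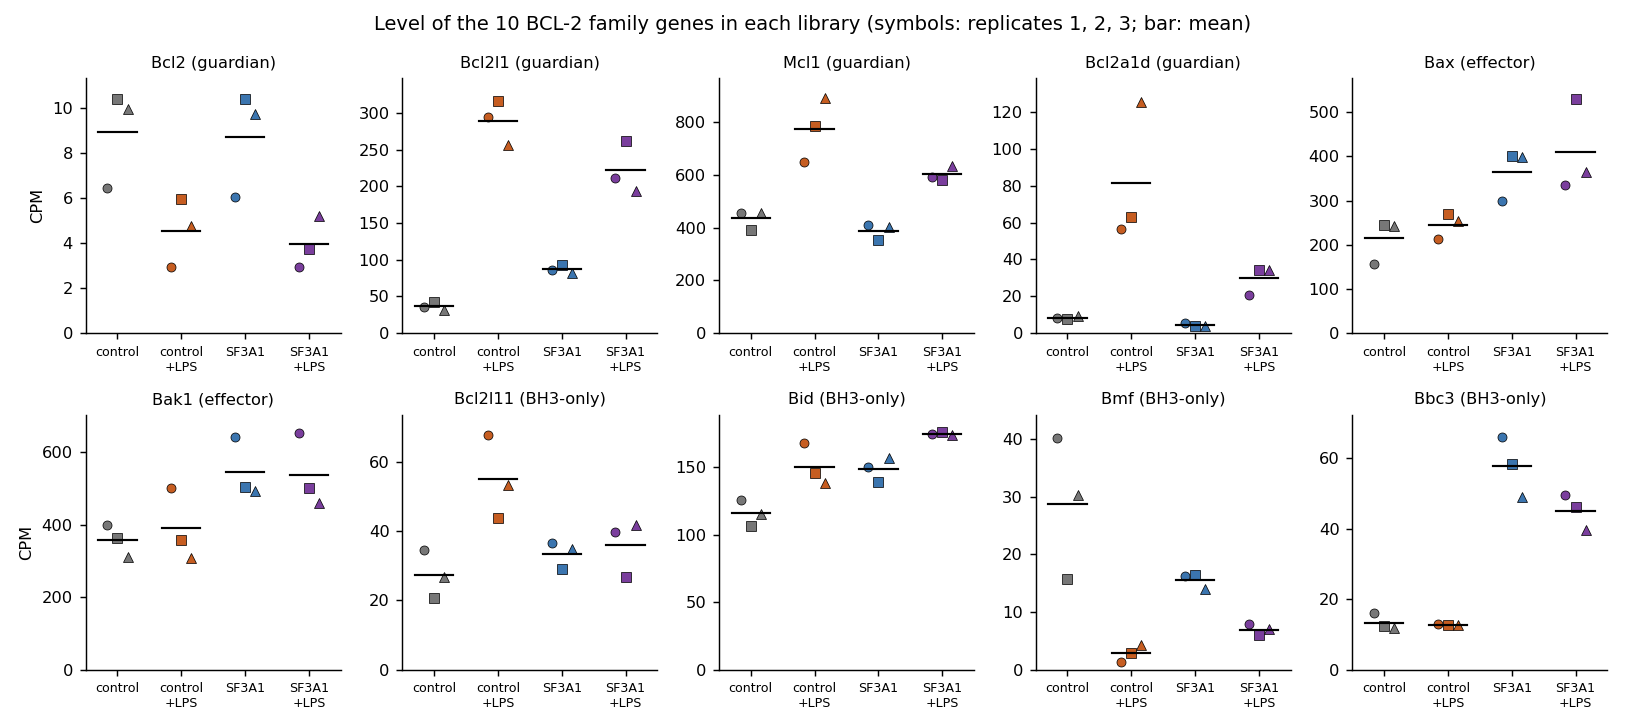
Level of each of the 10 genes in CPM (linear axis) in every library, by group, where SF3A1 stands for SF3a1 siRNA. Circles, squares and triangles are replicates 1, 2 and 3 and bars are group means. Bcl2l1 and Bcl2a1d sit highest in the control siRNA samples with LPS, Bmf lowest there, and all 6 SF3a1 siRNA samples sit above all 6 control siRNA samples for Bbc3.

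With control siRNA, LPS raised the guardians Bcl2l1 (7.98-fold), Bcl2a1d (9.72-fold) and Mcl1 (1.78-fold), lowered the guardian Bcl2 to 50.4%, raised the BH3-only gene Bcl2l11 (2.01-fold), and lowered the BH3-only gene Bmf to 9.61% of its level without LPS. At an adjusted p of 0.1 or less, 7 of the 10 genes were called, 5 higher and 2 lower, where 32.1% of all genes tested were called (13.8% higher, 18.3% lower). SF3a1 siRNA without LPS called 7 genes, 5 higher and 2 lower, against 33.8% of all genes (13.7% higher, 20.1% lower), with the largest change in Bbc3 (4.31-fold higher). SF3a1 siRNA with LPS called 7, 3 higher and 4 lower, against 38.8% of all genes (18.4% higher, 20.4% lower). In SF3a1 siRNA cells, LPS called 5, 3 higher and 2 lower, against 10.7% of all genes (6.6% higher, 4.06% lower). The median log2 change of the 10 genes was 0.28, 0.32, 0.01 and 0.13 in these comparisons, beside −0.02, −0.02, −0.04 and 0.01 over all genes tested. The comparisons share samples (the control siRNA samples without LPS serve both LPS and SF3a1 siRNA), so they are set side by side and not counted as separate evidence.

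**Figure D2:**
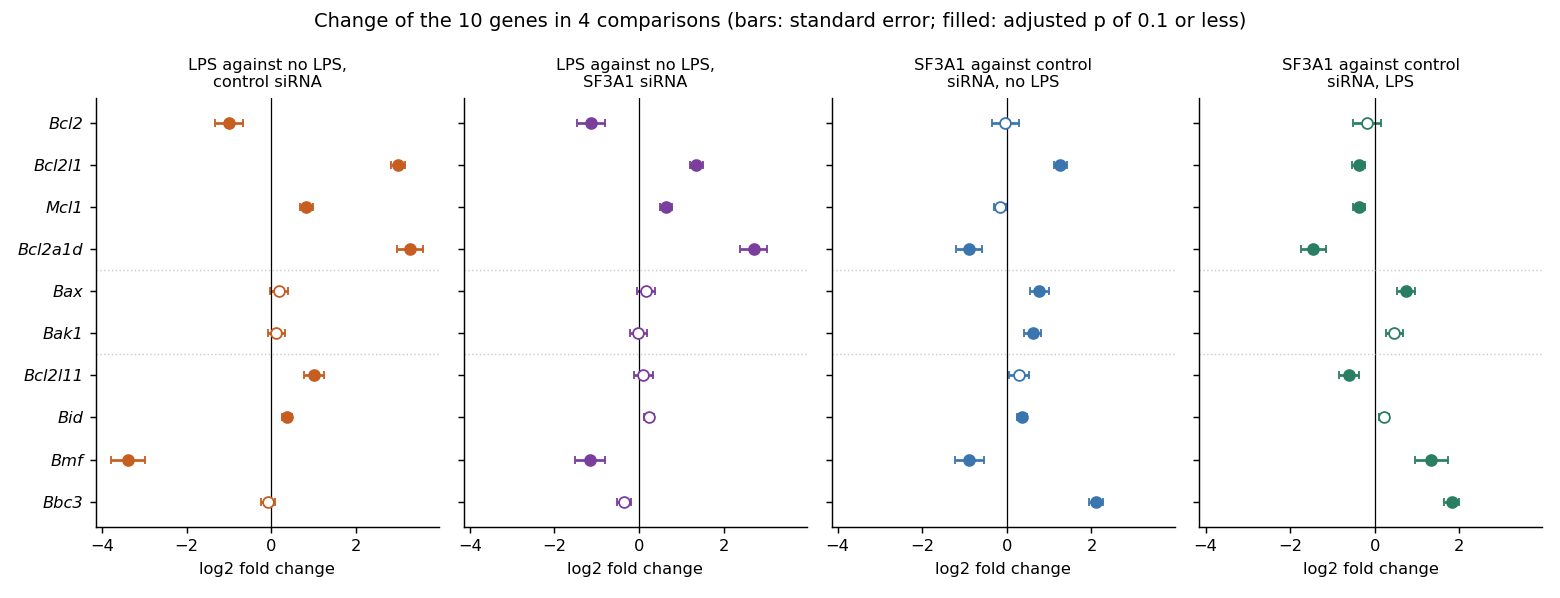
Log2 fold change of each gene (x axis) with its standard error in 4 comparisons, in rows ordered as guardians, effectors and BH3-only genes, where SF3A1 stands for SF3a1 siRNA. Filled points passed an adjusted p of 0.1. The Bcl2l1 point lies at 3.0 for LPS with control siRNA and at 1.35 for LPS with SF3a1 siRNA, and Bmf lies at −3.38 and −1.16.

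Among the guardians, Bcl2l1 (chr2:152780668-152831728, minus strand), the gene of BCL-xL, responded to both treatments. It stood at 36.0, 41.7 and 30.8 CPM with control siRNA, at 294, 316 and 256 CPM with control siRNA and LPS, at 86.6, 92.7 and 81.9 CPM with SF3a1 siRNA, and at 211, 262 and 194 CPM with both. Every treated sample stood above every untreated control, and the groups with LPS overlapped each other. LPS raised it by 3.0 ± 0.17 on the log2 scale with control siRNA (SE, adjusted p = 7.99e-08) and by 1.35 ± 0.16 with SF3a1 siRNA (adjusted p = 0.000126). SF3a1 siRNA raised it by 1.27 ± 0.16 without LPS (2.41-fold, adjusted p = 0.00016). With LPS the SF3a1 siRNA samples averaged 222 CPM and the control siRNA samples 289 CPM (log2 −0.38 ± 0.16, adjusted p = 0.0864). Within each replicate number the SF3a1 siRNA sample was the lower. That last call was kept with RLE scaling, by DESeq2 and with the replicate block. Of the 12 fits that left out a library, only 2 kept it. These were without replicate 3 of control siRNA with LPS or replicate 2 of SF3a1 siRNA with LPS. In the other 10 fits its adjusted p ran from 0.106 to 0.262, and with no filter on low counts it was 0.229. The response to LPS was 1.64 ± 0.22 lower on the log2 scale with SF3a1 siRNA than with control siRNA (interaction, adjusted p = 0.00372), 1 of 2 genes of the 10 called in the interaction, where 3.47% of all genes were called (1.54% higher, 1.94% lower).

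Mcl1 (chr3:95658788-95663176, plus strand), the gene of MCL-1, a short-lived guardian, was at 457, 392 and 455 CPM with control siRNA and at 649, 785 and 893 CPM with control siRNA and LPS. It was at 410.4, 354 and 402 CPM with SF3a1 siRNA and at 591, 582 and 635 CPM with both. All samples with LPS stood above all samples without it, and among the samples with LPS those with control siRNA stood above those with SF3a1 siRNA. LPS raised Mcl1 by 0.84 ± 0.14 on the log2 scale with control siRNA (adjusted p = 0.000782) and by 0.63 ± 0.14 with SF3a1 siRNA (adjusted p = 0.0157). The effect of SF3a1 siRNA was −0.16 ± 0.14 without LPS (adjusted p = 0.451) and −0.36 ± 0.14 with LPS (adjusted p = 0.0696). The call with LPS was lost without any 1 of the 3 control siRNA replicates without LPS, without replicate 2 or 3 of control siRNA with LPS, or without replicate 1 or 2 of SF3a1 siRNA with LPS (adjusted p from 0.114 to 0.249). It was also lost with no filter on low counts (adjusted p = 0.263). In the interaction, Mcl1 had −0.20 ± 0.20 (adjusted p = 0.813).

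Bcl2a1d, 1 of the near-identical mouse genes for A1, was at 8.18, 7.86 and 9.11 CPM with control siRNA and at 56.3, 62.9 and 126 CPM with control siRNA and LPS. With SF3a1 siRNA it was at 5.47, 4.07 and 3.94 CPM, and with SF3a1 siRNA and LPS at 20.7, 34.5 and 34.2 CPM. No 2 groups overlapped, and control siRNA stood above SF3a1 siRNA both without and with LPS. LPS raised Bcl2a1d by 3.28 ± 0.32 with control siRNA and by 2.71 ± 0.32 with SF3a1 siRNA on the log2 scale (adjusted p = 7.39e-06 and 0.000123). SF3a1 siRNA lowered it to 36.5% of control with LPS (log2 −1.45 ± 0.29, adjusted p = 0.00253), where replicate 3 of control siRNA with LPS was the highest sample. Without LPS it fell to 54.1% (log2 −0.89 ± 0.31, adjusted p = 0.0511). This smaller change passed the test only with every control siRNA replicate without LPS and replicates 2 and 3 of SF3a1 siRNA without LPS in the fit, since leaving out any 1 of these 5 libraries gave an adjusted p of 0.119 to 0.173. Only uniquely mapped reads were counted, so how reads were shared among the A1 genes is uncertain, and the value is best read as 1 of the A1 genes.

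Bcl2 (chr1:106538178-106714274, minus strand) had the lowest level per kb of the 9 genes without LPS. It was at 6.46, 10.4 and 9.96 CPM with control siRNA and 2.95, 5.96 and 4.77 CPM with control siRNA and LPS. With SF3a1 siRNA it was at 6.05, 10.4 and 9.75 CPM, and at 2.94, 3.75 and 5.20 CPM with both. The samples with LPS stood below those without, and the siRNA groups overlapped at either setting. LPS lowered Bcl2 to 50.4% in control siRNA cells (log2 −0.99 ± 0.33, adjusted p = 0.0417) and to 45.3% in SF3a1 siRNA cells (log2 −1.14 ± 0.33, adjusted p = 0.0562). The first call was lost without replicate 2 or 3 of control siRNA without LPS or replicate 1 of control siRNA with LPS (adjusted p = 0.132, 0.121 and 0.136). The second was lost without replicate 2 or 3 of SF3a1 siRNA without LPS or replicate 1 or 2 of SF3a1 siRNA with LPS (adjusted p from 0.161 to 0.192). SF3a1 siRNA gave −0.04 ± 0.32 without LPS (adjusted p = 0.954) and −0.19 ± 0.33 with LPS (adjusted p = 0.724).

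Of the effectors, SF3a1 siRNA raised Bax without and with LPS and Bak1 without LPS, and neither was called for LPS. Bax (chr7:45461697-45466898, minus strand) was at 157, 244 and 243 CPM with control siRNA and 213, 269 and 253 CPM with control siRNA and LPS. With SF3a1 siRNA it was at 299, 399.9 and 398 CPM, and with SF3a1 siRNA and LPS at 334, 530.3 and 364 CPM. All 6 SF3a1 siRNA samples stood above all 6 control siRNA samples. The difference was 0.77 ± 0.22 on the log2 scale without LPS (1.70-fold, adjusted p = 0.0205) and 0.74 ± 0.22 with LPS (1.67-fold, adjusted p = 0.0217), and both calls held without each library in turn. LPS gave 0.19 ± 0.22 with control siRNA and 0.16 ± 0.22 with SF3a1 siRNA (adjusted p = 0.6 and 0.801).

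Bak1 (chr17:27019810-27029009, minus strand) was at 399, 364 and 311 CPM with control siRNA and 503, 359 and 309 CPM with control siRNA and LPS. With SF3a1 siRNA it was at 642, 503 and 494 CPM, and with both at 652, 501 and 461 CPM. Without LPS the siRNA groups did not overlap, and with LPS replicate 1 of control siRNA stood among the SF3a1 siRNA samples. SF3a1 siRNA raised Bak1 by 0.61 ± 0.20 on the log2 scale without LPS (1.53-fold, adjusted p = 0.0413), a call lost without replicate 1 of SF3a1 siRNA without LPS (adjusted p = 0.145). With LPS the difference was 0.46 ± 0.20 (adjusted p = 0.102), and 0.48 with an adjusted p of 0.00311 once the replicate number entered as a block. It was 0.69 with an adjusted p of 0.0169 without replicate 1 of control siRNA with LPS. The call was also gained, with adjusted p from 0.0813 to 0.0967, without replicate 1 or 3 of control siRNA, replicate 1 of SF3a1 siRNA or replicate 3 of SF3a1 siRNA with LPS, and likewise by DESeq2 (0.0936) and with no filter on low counts (0.0987). LPS gave 0.12 ± 0.20 with control siRNA and −0.02 ± 0.20 with SF3a1 siRNA (adjusted p = 0.724 and 0.982).

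Among the BH3-only genes, Bbc3 (chr7:16309616-16318205, plus strand), the gene of PUMA and a known p53 target, set the siRNA groups furthest apart. It was at 16.02, 12.3 and 11.8 CPM with control siRNA and 12.9, 12.7 and 12.7 CPM with control siRNA and LPS. It was at 66.0, 58.3 and 49.0 CPM with SF3a1 siRNA and at 49.6, 46.1 and 39.5 CPM with both. The lowest SF3a1 siRNA sample (39.5 CPM) stood well above the highest control siRNA sample (16.02 CPM). SF3a1 siRNA raised Bbc3 by 2.11 ± 0.17 without LPS and by 1.82 ± 0.17 with LPS on the log2 scale (4.31-fold and 3.52-fold, adjusted p = 1.48e-05 and 2.55e-05). LPS gave −0.07 ± 0.17 with control siRNA (adjusted p = 0.83) and −0.36 ± 0.16 with SF3a1 siRNA (adjusted p = 0.254, and 0.0717 with the replicate block).

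Bmf (chr2:118528757-118549687, minus strand), whose protein is tied to the cytoskeleton in healthy cells, was at 40.1, 15.8 and 30.3 CPM with control siRNA and 1.42, 2.86 and 4.21 CPM with control siRNA and LPS. With SF3a1 siRNA it was at 16.3, 16.4 and 13.99 CPM, and with both at 7.87, 5.98 and 7.03 CPM. LPS lowered Bmf in both siRNA groups without overlap, the samples with both treatments stood above those with LPS alone, and the 2 groups without LPS overlapped at replicate 2 of control siRNA. The change with LPS was −3.38 ± 0.40 on the log2 scale with control siRNA (adjusted p = 4.27e-05) and −1.16 ± 0.36 with SF3a1 siRNA (adjusted p = 0.0781). SF3a1 siRNA gave −0.88 ± 0.35 without LPS (adjusted p = 0.0849) and 1.34 ± 0.38 with LPS (2.53-fold, adjusted p = 0.0188). The interaction was 2.22 ± 0.52 (adjusted p = 0.0498). It was lost without replicate 1 or 3 of control siRNA without LPS, replicate 2 or 3 of SF3a1 siRNA without LPS or replicate 3 of SF3a1 siRNA with LPS (adjusted p from 0.101 to 0.136). The fall with SF3a1 siRNA without LPS was lost without 7 libraries, namely replicates 1 and 3 of control siRNA, replicates 1, 2 and 3 of SF3a1 siRNA, replicate 2 of control siRNA with LPS and replicate 3 of SF3a1 siRNA with LPS. Its value was −0.47 (adjusted p = 0.397) without replicate 1 of control siRNA. It was also lost with RLE scaling (adjusted p = 0.11). The fall with LPS in SF3a1 siRNA cells was lost without any 1 of the 6 SF3a1 siRNA libraries, without replicate 2 of control siRNA with LPS or without replicate 3 of control siRNA without LPS (adjusted p from 0.1 to 0.234).

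Bcl2l11 (chr2:128126038-128162547, plus strand), the gene of BIM, was at 34.7, 20.6 and 26.9 CPM with control siRNA and 67.7, 44.0 and 53.5 CPM with control siRNA and LPS. With SF3a1 siRNA it was at 36.5, 29.2 and 34.9 CPM, and with both at 39.7, 26.7 and 41.7 CPM. Only the control siRNA samples with LPS stood above all others, and the other 3 groups overlapped. LPS raised Bcl2l11 by 1.01 ± 0.23 on the log2 scale with control siRNA (adjusted p = 0.00588) and gave 0.11 ± 0.23 with SF3a1 siRNA (adjusted p = 0.902). The difference between these effects was −0.90 ± 0.33 (interaction, adjusted p = 0.22), and −0.93 with an adjusted p of 0.00919 with the replicate block. SF3a1 siRNA gave 0.29 ± 0.23 without LPS (adjusted p = 0.403) and −0.61 ± 0.23 with LPS (adjusted p = 0.062). Without LPS it was called with the replicate block (0.31, adjusted p = 0.0738) and without replicate 1 of control siRNA (0.60, adjusted p = 0.0959). The call with LPS was lost without replicate 3 of control siRNA without LPS, replicate 1 or 3 of control siRNA with LPS or replicate 2 of SF3a1 siRNA with LPS (adjusted p = 0.101, 0.196, 0.105 and 0.193).

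Bid (chr6:120891930-120916853, minus strand), whose protein is cut by caspase-8 downstream of death receptors, varied least. It was at 126, 106 and 116 CPM with control siRNA, 167, 145 and 138 CPM with control siRNA and LPS, 150.1, 139 and 157 CPM with SF3a1 siRNA, and 174, 176 and 173 CPM with both. The untreated controls stood below every other sample. LPS raised Bid by 0.37 ± 0.12 on the log2 scale with control siRNA (1.30-fold, adjusted p = 0.0402), and SF3a1 siRNA raised it by 0.36 ± 0.12 without LPS (1.28-fold, adjusted p = 0.0492). The first call was lost without replicate 2 or 3 of control siRNA without LPS or replicate 1 of control siRNA with LPS (adjusted p = 0.154, 0.106 and 0.129), and the second without replicate 1 or 3 of SF3a1 siRNA without LPS (adjusted p = 0.109 and 0.159). With no filter on low counts both were lost (adjusted p = 0.298 and 0.326). SF3a1 siRNA gave 0.22 ± 0.12 with LPS (adjusted p = 0.213, and 0.095 without replicate 1 of control siRNA with LPS), and LPS gave 0.23 ± 0.12 with SF3a1 siRNA (adjusted p = 0.345). Whether reads were counted by strand is not given in the sources used here, and Bcl2, Bak1 and Bid have annotated genes on the other strand, so reads from those cannot be told apart. Bcl2, Bax and Bid also have annotated genes on the same strand within their span. In Bax, exons of such a gene lie over bins 4 and 5. The part of these overlaps in the levels was not tested.

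At the exon level, no bin of Mcl1, Bcl2l1 or Bcl2l11 was called by edgeR on all bin libraries without a replicate block, while the levels of the genes changed as above. None of the 37 bins tested passed an adjusted p of 0.1 by edgeR's diffSpliceDGE in LPS with control siRNA, SF3a1 siRNA without LPS, SF3a1 siRNA with LPS, LPS with SF3a1 siRNA or the interaction, where 0.0801, 0.626, 0.492, 0.0254 and 0% of all bins tested were called. At an unadjusted p under 0.05 there were 1, 3, 5, 2 and 1 bins. Of these, 1, 2, 3, 1 and 0 were in Bcl2l1 and 0, 1, 2, 1 and 1 in Bcl2l11. Limma's diffSplice called 1, 0, 0, 0 and 0 bins, and the fit with the replicate block called 1, 2, 1, 0 and 0. The bins called by these 2 fits were all in Bcl2l1. The shares over all bins moved too, to 0.0632% for SF3a1 siRNA under LPS and 0.0307% for LPS with control siRNA without replicate 1 of control siRNA and LPS. The test asks whether a bin changed relative to the rest of its gene, and bin values are given as percent of the gene's bin counts, in which a read that spans 2 bins counts in each. The 12 untested bins held 1 to 44 counts over all libraries and at most 0.597% of their gene in any group.

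**Figure D3:**
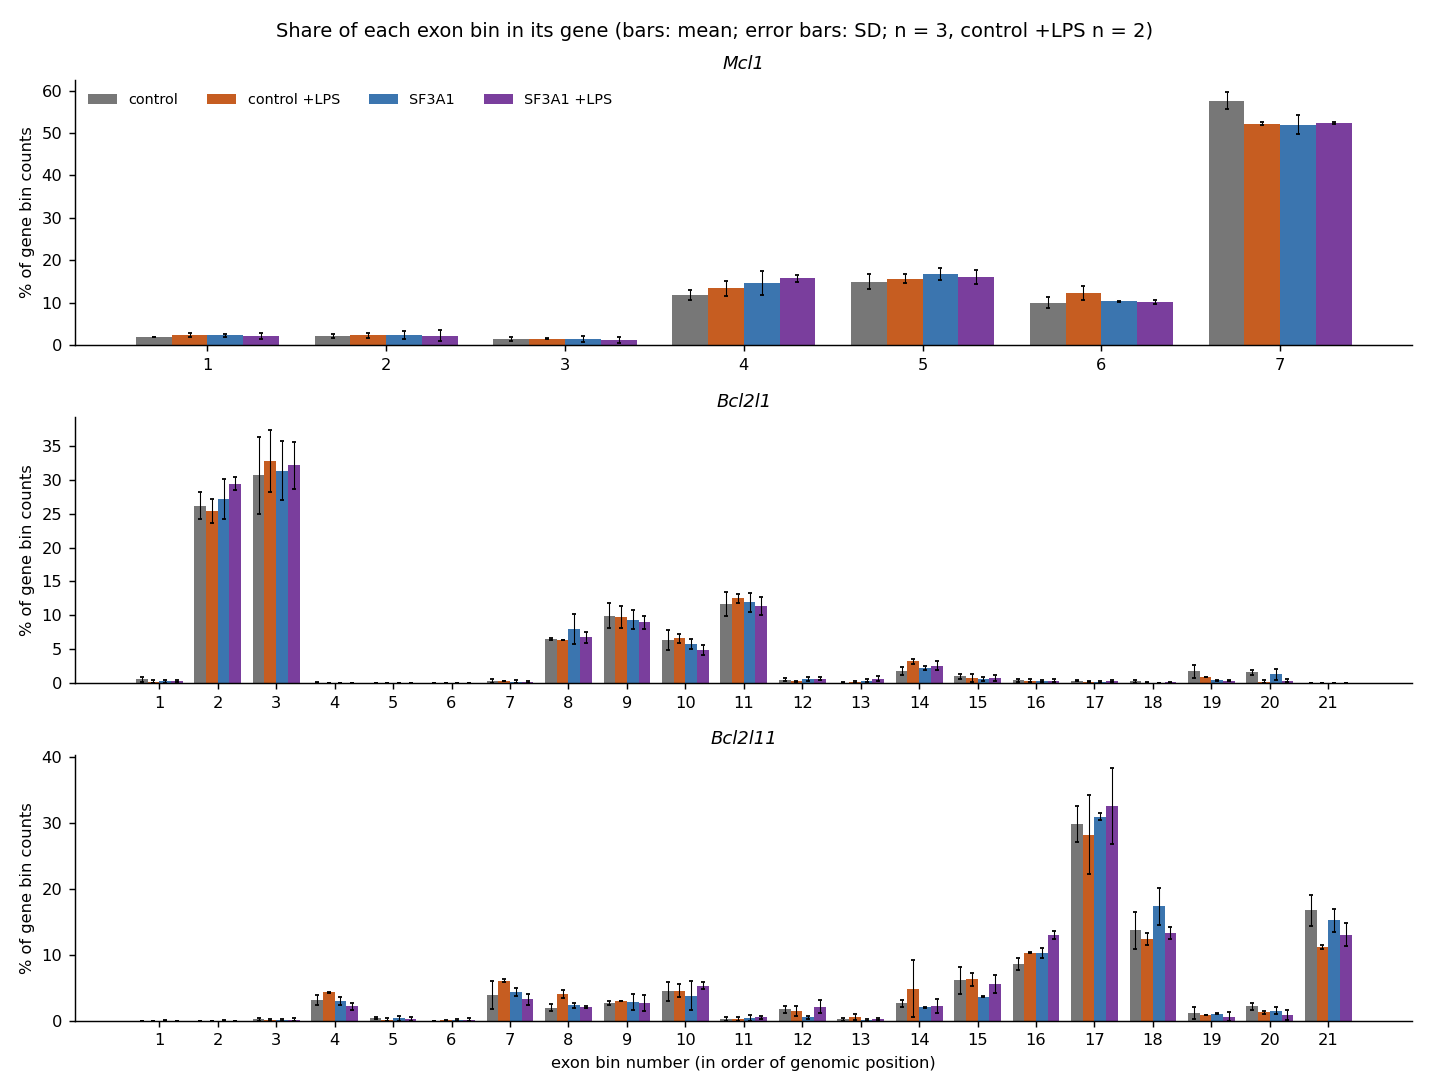
Mean percent of the gene's bin counts (y axis) in each exon bin of Mcl1, Bcl2l1 and Bcl2l11 (x axis, in genomic order), with SD, for n = 3 libraries per group and n = 2 for control siRNA with LPS, where SF3A1 stands for SF3a1 siRNA. The 4 bars of a bin lie close together in most bins, for example 15, 15.7, 16.8 and 16.1% in Mcl1 bin 5.

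In Mcl1, all 7 bins were tested. The second exon (bin 5) held 12.9, 15.97 and 16.2% of bin counts with control siRNA, 14.96 and 16.4% with control siRNA and LPS, 15.2, 17.7 and 17.4% with SF3a1 siRNA, and 14.2, 17.4 and 16.8% with both. The groups overlapped, and the log2 change relative to the gene was 0.08 with LPS, 0.16 with SF3a1 siRNA and 0.04 with SF3a1 siRNA in the presence of LPS. Bin 3, which Mcl1-202 leaves out, averaged 1.42, 1.52, 1.46 and 1.26% in the 4 groups. Its log2 change was 0.11, 0.06 and −0.29 in the same comparisons. Bins 2, 4 and 6 hold the rest of the coding sequence (bin 6 in part), and bin 7 is untranslated. Bin 4 averaged 11.8, 13.4, 14.7 and 15.7%, and bin 6 averaged 10.1, 12.4, 10.3 and 10.1%. Bin 7, at the 3′ end, held 56.0 to 59.8% with control siRNA and 49.7 to 54.2% in the 8 other libraries. These ranges did not overlap, though the bin was not called in any comparison. Bins 1 and 2, at the start of the gene, averaged 2.00 to 2.49% and 2.15 to 2.44%.

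In Bcl2l11, the bins that separate the forms of BIM had shares that overlapped between all groups. Bin 9, coding in the longest form alone but also part of the noncoding transcript Bcl2l11-208, held 2.43, 3.02 and 2.66% with control siRNA, 3.02 and 2.96% with control siRNA and LPS, 3.60, 3.47 and 1.53% with SF3a1 siRNA, and 4.04, 1.76 and 2.12% with both. Bin 10 held 3.24, 3.96 and 6.11%, then 5.24 and 3.89%, then 2.65, 6.28 and 2.48%, and 5.11, 5.86 and 4.85% in the same order of groups. No group stood apart at either bin. The log2 change relative to the gene was 0.19, 0.12 and −0.11 for bin 9 and 0.13, −0.25 and 0.13 for bin 10 with LPS, SF3a1 siRNA, and SF3a1 siRNA in the presence of LPS. Few reads lie behind these values, as Bcl2l11 had 512 to 3075 bin counts per library. Most counts fell in the untranslated part of the last exon (bins 17 to 21), with means of 63.6, 53.9, 66.0 and 60.3%. The exons shared by the full-length coding transcripts (bins 15 and 16) held 14.7, 16.6, 13.9 and 18.5%, and bin 7, with the start codon, held 3.88, 6.06, 4.34 and 3.25%. Transcript Bcl2l11-202 ends early, without these exons, and bin 14, found in it alone, averaged 2.64, 4.87, 2.02 and 2.20%. In control siRNA with LPS its 2 libraries stood at 1.79 and 7.94%.

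Among Mcl1, Bcl2l1 and Bcl2l11, only Bcl2l1 had bins that were called in any alternative fit, all in minor start exons. Its bins are numbered against the direction of transcription, so bins 20 and 21 are the distal start. None of its main bins was called. The first coding exon (bins 8 to 11) averaged 34.6, 35.2, 35.0 and 32.0% in the 4 groups, and the last exon (bins 1 to 3) averaged 57.5, 58.4, 58.7 and 61.9%. The internal 5′ splice site that makes BCL-xS drops the 3′ end of the first coding exon, where bin 8 lies. Bin 8 was tested and was not called in any comparison. The splice site itself lies inside a bin, so the share of BCL-xS was not measured. The distal start exon (bin 20, chr2:152831603-152831710, 108 bases, untranslated) held 1.35, 1.97 and 1.40% with control siRNA and 0.0502 and 0.401% with control siRNA and LPS. It held 0.338, 1.74 and 1.78% with SF3a1 siRNA and 0.350, 0.138 and 0.525% with both. With control siRNA the samples with LPS stood below those without, a log2 change relative to the gene of −2.99 (adjusted p = 0.158). This was called with the replicate block (−3.11, adjusted p = 0.000254) and by limma (−3.98, adjusted p = 0.00433). It was also called without replicate 1 or 2 of SF3a1 siRNA with LPS (adjusted p = 0.0679 and 0.0563). Control siRNA with LPS had 2 libraries with bin counts, so leaving out either leaves an arm of 1 library that is assumed to vary like the other groups. The change was then −1.99 (adjusted p = 1) without replicate 1 and −4.95 (adjusted p = 0.0368) without replicate 2.

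Scaled to CPM of all bin counts, Bcl2l1 bin 20 itself averaged 0.553 ± 0.212 CPM (SD, n = 3) with control siRNA and 0.603 ± 0.684 (n = 2) with control siRNA and LPS. Over the same groups bin 14, in a proximal start exon, went from 0.642 ± 0.321 to 8.19 ± 0.186. The proximal start exons together (bins 14 to 19) held 5.48, 5.49, 3.78 and 4.33% of the gene. Bin 19, the 5′ part of the Bcl2l1-203 start exon, averaged 1.74, 0.885, 0.393 and 0.365%. With SF3a1 siRNA its log2 change was −2.02 without LPS (adjusted p = 0.241, and 0.00779 with the replicate block) and −1.30 with LPS (adjusted p = 1, and 0.0513 with the block). Bin 13, the start exon of Bcl2l1-206, averaged 0.0298% with control siRNA, from 1 count, and 0.358% with SF3a1 siRNA (adjusted p = 0.451, and 0.0481 with the block). Bins 4 to 7, where transcripts run on into the large intron, averaged 0.386, 0.312, 0.212 and 0.173%.

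**Figure D4:**
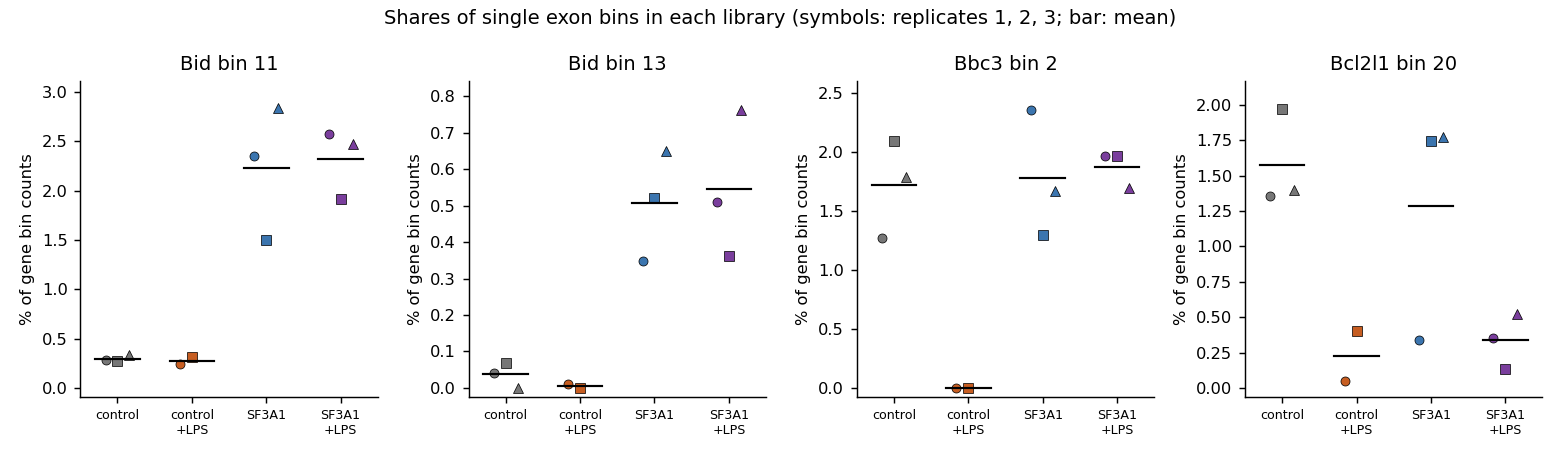
Percent of the gene's bin counts (y axis) in 4 single exon bins, by library and group, where SF3A1 stands for SF3a1 siRNA. Circles, squares and triangles are replicates 1, 2 and 3 and bars are means. Bid bins 11 and 13 are higher in all 6 SF3a1 siRNA libraries, and Bbc3 bin 2 is at 0 in both libraries of control siRNA with LPS. Bcl2l1 bin 20 is at or below 0.525% in all 5 libraries with LPS, and also in replicate 1 of SF3a1 siRNA without LPS (0.338%).

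Of the 71 bins of the other 7 genes, 57 were tested and 4 were called in at least 1 comparison, 3 in Bid and 1 in Bbc3. SF3a1 siRNA called 3 of them without LPS (2 higher, 1 lower, where 0.497 and 0.128% of all bins were called higher and lower) and 3 with LPS (all higher, where 0.381 and 0.111% were). LPS called 0 of the 57 in either siRNA group, with 3 and 0 at an unadjusted p under 0.05. In Bid, SF3a1 siRNA raised 2 untranslated exons that lie between the first exon and the start codon and are skipped by the main transcript, Bid-201. Bid bin 11 (chr6:120906429-120906563, 135 bases, in Bid-203) held 0.282, 0.276 and 0.334% with control siRNA, 0.242 and 0.313% with control siRNA and LPS, 2.35, 1.499 and 2.83% with SF3a1 siRNA, and 2.57, 1.92 and 2.47% with both. All SF3a1 siRNA libraries stood above all control siRNA libraries. The log2 change relative to the gene was 2.89 without LPS (adjusted p = 1.68e-07) and 3.08 with LPS (adjusted p = 1.39e-05), and both calls held in all 15 alternative fits. Bid bin 13 (chr6:120907262-120907385, 124 bases, in Bid-202 and Bid-203) rested on few reads, with 3, 2 and 0 counts with control siRNA, 1 and 0 with control siRNA and LPS, 19, 16 and 17 with SF3a1 siRNA, and 39, 13 and 34 with both. Its share was at most 0.0689% in control siRNA libraries and ran from 0.348 to 0.763% in SF3a1 siRNA libraries. It was called without LPS (log2 3.60, adjusted p = 0.000972) and with LPS (log2 5.46, adjusted p = 0.000319). The call with LPS, against 1 count in control siRNA, was lost without replicate 1 of control siRNA with LPS (adjusted p = 0.266), which leaves 1 library in that group.

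The third Bid bin, bin 1 (chr6:120891930-120892557, 628 bases), was lower with SF3a1 siRNA without LPS, with 26, 15 and 12 counts against 3, 3 and 0 (log2 −2.91, adjusted p = 0.0501). This bin lies over an exon of Bcl2l13 on the other strand, and the call was kept in 10 of 15 alternative fits. It was lost by limma (adjusted p = 0.108) and without replicate 2 or 3 of control siRNA (0.244 and 0.109) or replicate 1 or 3 of SF3a1 siRNA (0.238 and 0.534). Bbc3 bin 2 (chr7:16310455-16310538, 84 bases, the start exon of Bbc3-202) held 1.27, 2.09 and 1.79% with control siRNA, 0 and 0% with control siRNA and LPS, 2.36, 1.30 and 1.67% with SF3a1 siRNA, and 1.97, 1.96 and 1.70% with both. The group at 0 had 744 counts over the gene, so a count of 0 allows up to 0.403%. With LPS, SF3a1 siRNA was therefore at least 4.65-fold higher against that floor of 3 counts over the group (adjusted p = 0.0372). The call was lost by limma and without replicate 1 or 2 of control siRNA with LPS or replicate 2 of SF3a1 siRNA with LPS (adjusted p = 0.65, 1, 0.232 and 0.101). LPS with control siRNA had an adjusted p of 0.251 at this bin, and 0.0848 with the replicate block. Bbc3 bin 3, the first coding exon, had an adjusted p of 0.667 for SF3a1 siRNA with LPS (log2 1.49) and passed with the replicate block alone (log2 1.90, adjusted p = 0.0463).

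Genes around the family were read from 4 lists. Their counts are set against the share of all genes called, 32.1% for LPS with control siRNA and 33.8% for SF3a1 siRNA without LPS. That share was 38.8% for SF3a1 siRNA with LPS and 10.7% for LPS in SF3a1 siRNA cells. List medians are set against those of all genes (−0.02, −0.02, −0.04 and 0.01 in the same order). Of 11 other BCL-2 family genes tested (16 listed), 6 were called for LPS with control siRNA, 4 higher and 2 lower (median log2 change −0.15, all genes −0.02). Bcl2a1b (log2 3.36) and Bcl2a1c (3.34), also A1 genes, and Bcl2l2 (0.68), the gene of the guardian BCL-w, rose, and Bnip3l (−0.82), a mitophagy receptor, fell. The other 2, Bcl2l15 (2.42, from 0.155 to 0.836 CPM) and Bok (−1.56, from 1.14 to 0.419 CPM), averaged under 1 CPM over the libraries and are named after their values were seen. SF3a1 siRNA called 3 of the 11 without LPS (1 higher, 2 lower; median −0.33, all genes −0.02), with Bnip3, another mitophagy receptor, at −1.77, Bcl2a1c at −0.87 and Bcl2l15 at 2.44 (from 0.155 to 0.844 CPM). With LPS it called 6 (2 higher, 4 lower; median −0.07, all genes −0.04). Bcl2a1b (−1.59), Bnip3 (−1.46) and Bcl2a1c (−1.37) fell furthest, and Bnip3l (0.55) and Bcl2l13 (0.42) rose. In SF3a1 siRNA cells LPS called Bcl2a1c (2.84) and Bcl2a1b (2.22), with a median of 0.13 (all genes 0.01). Some of these values depended on single libraries. Bnip3 for SF3a1 siRNA alone was −1.07 without replicate 3 of control siRNA, still called. Bok was lost without replicate 3 of control siRNA or replicate 1 or 3 of control siRNA and LPS (adjusted p up to 0.192), and Bcl2a1c for SF3a1 siRNA alone without any control siRNA replicate or replicate 1 or 3 of SF3a1 siRNA (up to 0.225). Under LPS, the SF3a1 siRNA calls of Bcl2l13 and Bnip3l were lost without replicate 2 of control siRNA or replicate 1 of SF3a1 siRNA, and also without replicate 3 of control siRNA for Bcl2l13 and replicate 3 of SF3a1 siRNA for Bnip3l (up to 0.202 and 0.147). Bcl2l13 was also lost with no filter on low counts (0.139).

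The list of caspases and the proteins that act below the mitochondrion had 19 genes, all tested. LPS with control siRNA called 6, 1 higher and 5 lower (median −0.22, all genes −0.02), a share near the 32.1% of all genes. Birc3, an inhibitor of apoptosis, rose (log2 1.55), and the survivin gene Birc5 (−0.87) and the nuclease gene Endog (−0.80) were among those that fell. SF3a1 siRNA without LPS called 7, 1 higher and 6 lower (median −0.19, all genes −0.02), near the 33.8% of all genes. The caspase inhibitor Xiap rose (0.51), and Birc5 (−2.65), Endog (−1.39) and Diablo (−1.39), whose protein counters the inhibitors of apoptosis, fell. With LPS, SF3a1 siRNA called 11, 4 higher and 7 lower (median −0.14, all genes −0.04). The initiator Casp9 (1.06), the nuclease gene Dffb (0.74) and Casp6 (0.58) rose, and Birc5 (−2.11) and Diablo (−0.99) were among those that fell. LPS in SF3a1 siRNA cells called 4, 1 higher (Birc3, 0.72) and 3 lower (among them Casp6, −0.70), with a median of 0.03 (all genes 0.01). Birc5 for LPS was lost without replicate 2 or 3 of control siRNA (adjusted p = 0.103 in both), and Xiap without replicate 1 or 3 of SF3a1 siRNA (0.12 and 0.106). Casp6 for SF3a1 siRNA under LPS was lost without replicate 2 or 3 of control siRNA or replicate 1 or 2 of SF3a1 siRNA in the groups with LPS (up to 0.193). For LPS in SF3a1 siRNA cells, Casp6 was lost without replicate 2 of control siRNA and LPS, replicate 1 or 2 of SF3a1 siRNA alone or any replicate of SF3a1 siRNA and LPS (up to 0.241), and Birc3 without replicate 2 of SF3a1 siRNA alone or replicate 3 of SF3a1 siRNA and LPS (0.154 and 0.135).

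Of the 12 genes of the death receptor arm, LPS with control siRNA called 8, 7 higher and 1 lower, where 32.1% of all genes were called, with a median log2 change of 1.12 (all genes −0.02; 1.07 without Fasl, which was at 0 counts in control siRNA without LPS). The receptor gene Fas went from 1.29 ± 0.73 to 161 ± 51.3 CPM (n = 3, log2 6.92) and Tnfrsf1b from 35.3 ± 13.7 to 1281 ± 524 CPM (log2 5.18). The TRAIL gene Tnfsf10 went from 0.124 ± 0.0515 to 10.9 ± 3.96 CPM (log2 6.49). The adaptor Fadd fell (−0.83). SF3a1 siRNA without LPS called 7, 4 higher and 3 lower (median 0.24, all genes −0.02; 33.8% of all genes called). Tnfrsf10b, the TRAIL receptor, rose by 2.21 on the log2 scale, Fas by 1.95 and the caspase-8 inhibitor Cflar by 0.82. The fourth that rose, the ligand gene Fasl, rested on few reads, with 0 counts in each control siRNA library and 18, 4 and 5 with SF3a1 siRNA (adjusted p = 0.00212). The adaptors Fadd (−1.21) and Tradd (−0.97) fell, and Tnfsf10 was at 0 counts, at least 2.44-fold lower than control. With LPS, SF3a1 siRNA called 9, 2 higher and 7 lower (median −0.55, all genes −0.04; 38.8% of all genes called): Tnfrsf10b (1.70) and Fasl (14, 9 and 12 counts against 3, 0 and 0, adjusted p = 0.00867) rose, and Tnfsf10 (−3.64), Fas (−1.57) and Tnfrsf1b (−0.88) fell furthest. In SF3a1 siRNA cells LPS called 6, all higher (median 0.45, all genes 0.01; 10.7% of all genes called), with Tnfrsf1b at 4.02, Fas at 3.40 and Tnfsf10 at least 17.2-fold higher. The response to LPS was smaller with SF3a1 siRNA for Fas (interaction −3.52, adjusted p = 0.00632) and Cflar (−1.39, adjusted p = 0.0269). Tnfsf10 for SF3a1 siRNA alone was lost without replicate 3 of control siRNA or replicate 1 of SF3a1 siRNA (adjusted p = 0.102 and 0.124). Tnfrsf1b for SF3a1 siRNA under LPS was lost without replicate 1 of control siRNA and LPS (log2 −0.49, adjusted p = 0.176) or replicate 3 of SF3a1 siRNA and LPS (0.109).

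Of 13 tested regulators of the family (15 listed), LPS with control siRNA called 6, 3 higher and 3 lower (median −0.06, all genes −0.02; 32.1% of all genes called). The NF-κB subunit gene Nfkb1 rose (log2 2.48), as did the stress factors Ddit3 (1.57) and Atf4 (0.91), and the transcription factors E2f1 (−1.70), Foxo1 (−1.35) and Foxo3 (−0.69) fell. SF3a1 siRNA without LPS called 3 (median 0.23, all genes −0.02; 33.8% of all genes called). Foxo3, a known activator of Bcl2l11 and Bbc3, rose by 1.61 on the log2 scale, Ddit3 rose by 1.37, and E2f1 fell (−0.86). With LPS, SF3a1 siRNA called 3 (median 0.17, all genes −0.04; 38.8% of all genes called), with Foxo3 (1.67) and Foxo1 (1.48) higher and Nfkb1 (−0.40) lower. LPS in SF3a1 siRNA cells called Nfkb1 (1.90) and Atf4 (0.92), with a median of −0.26 (all genes 0.01; 10.7% of all genes called). Ddit3 for LPS with control siRNA rested on replicate 1 of control siRNA and LPS (log2 0.49, adjusted p = 0.147 without it). Foxo3 for LPS was lost without replicate 1 or 3 of control siRNA or replicate 2 or 3 of control siRNA and LPS (adjusted p up to 0.217), E2f1 for SF3a1 siRNA without any control siRNA replicate or replicate 2 or 3 of SF3a1 siRNA (up to 0.209), and Nfkb1 for SF3a1 siRNA under LPS without replicate 3 of control siRNA or replicate 1 or 2 of SF3a1 siRNA in the groups with LPS (up to 0.137) or with no filter on low counts (0.19). The p53 gene Trp53 was tested and was not called in any of these comparisons.

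**Figure D5:**
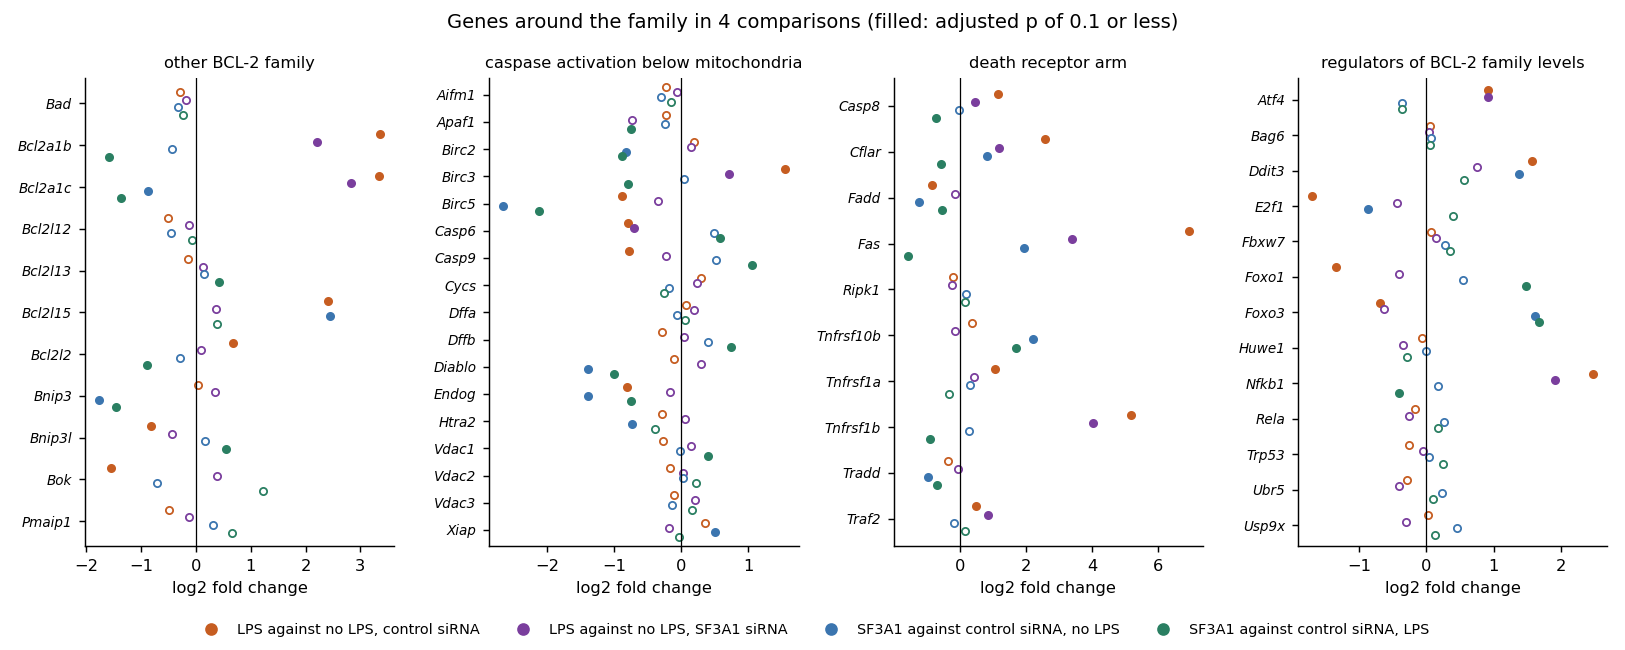
Log2 fold change (x axis) of the listed genes reported here in 4 comparisons (colours), in panels by list, where SF3A1 stands for SF3a1 siRNA. Filled points passed an adjusted p of 0.1. Tnfsf10 and Fasl, which had a group at 0 counts, are left out. Fas lies furthest right, at 6.92 for LPS with control siRNA, and Birc5 furthest left, at −2.65 for SF3a1 siRNA without LPS.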

How the data were processed

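RNA from 12 libraries of RAW264.7 cells was sequenced single-end on an Ion Proton after polyA selection, and groups were taken from the sample titles. Reads were mapped by the authors to mm10 with GSNAP, and the deposited values are unnormalized counts of uniquely mapped reads, per gene by HTSeq and per exon bin by the DEXSeq counting script. Unique mapping removes reads shared by near-identical genes, and 17.75 to 27.2% of reads per library fell on no gene and were left out. Whether counting used strand is not given in the sources used here. No column of the authors' own comparisons was used. Counting error bounds given for counts of 0 use a floor of 3 counts.

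Genes were tested with edgeR 4.0.16 (R 4.3.3; TMM factors, filterByExpr, quasi-likelihood test over all 4 groups) and bins with its diffSpliceDGE, since DEXSeq was not installed; p-values were adjusted by Benjamini-Hochberg over all features tested and called at 0.1 or less. The tests were tried first on simulated counts. These had a single spread for all features and no replicate effect, so they were simpler than the data here. Alternatives were RLE scaling, DESeq2 1.42.0, limma 3.58.1, other filters, the replicate number as a block and leaving out each library. After removing group means, same-numbered libraries of different groups correlated in all 18 pairs (r 0.144 to 0.659). The 36 other pairs had a median of −0.36 and ran from −0.591 to 0.417. Among these, pairs with a replicate 1 were all negative, and pairs of a replicate 2 with a replicate 3 were all positive. The labels of the bin counts give runs 1 and 2 for every replicate 1 library and run 1 for the other libraries. For a splicing analysis, the paper cut replicate 1 reads to a longer fixed length than those of replicates 2 and 3. The part of these differences in the results was not tested. Whether the numbers pair the samples, beyond replicate 1 standing apart, was not tested either. The 10 genes and the 4 lists were chosen with earlier results of these data known. Named were all 10 genes, bins that were called, held at least 5% of a gene or set isoforms apart, and from each list up to 3 called genes each way with a mean of at least 1 CPM. Some list genes that this rule names are counted but not reported here by name. Gene positions, transcripts and sequences came from mm10 with GENCODE vM21. Figures were drawn with matplotlib 3.10.9.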

Additional observations from a re-analysis of the deposited data

Results flagged for a closer look

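Both genes whose response to LPS differed between the siRNA groups in the interaction test met a rule for a closer look. For Bcl2l1 the interaction was −1.64 on the log2 scale (edgeR, adjusted p = 0.00372): LPS raised it by 3.0 with control siRNA and by 1.35 with SF3a1 siRNA, with all 3 samples with LPS above all 3 without in either siRNA group. For Bmf the interaction was 2.22 (edgeR, adjusted p = 0.0498): LPS lowered it by 3.38 and by 1.16 on the log2 scale, again without overlap in either siRNA group.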

How the results depend on the processing

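Among the refits of single genes, 701 kept the direction and the side of the threshold, 13 gained a call, 64 lost one and 22 reversed direction. Single bins were refitted only for results called in the main fit or with the replicate block. Of those refits 160 were unchanged in this sense, 10 gained and 10 lost a call and 0 reversed. These counts therefore do not describe the bins that were never called. The reversals were of changes that were not called. Bcl2 with SF3a1 siRNA without LPS (−0.04) became 0.0233 with RLE scaling and 0.0232 by DESeq2, and ran from −0.17 to 0.18 with 1 library left out. Leaving out 1 library also moved Bcl2 with SF3a1 siRNA and LPS from −0.44 to 0.0469, Bbc3 and Bak1 for LPS with control siRNA from −0.14 to 0.11 and −0.10 to 0.27, and Bak1, Bax and Bcl2l11 for LPS with SF3a1 siRNA from −0.19 to 0.11, −0.0664 to 0.29 and −0.0122 to 0.28. In the interaction Bax, Bak1 and Bcl2 ran from −0.26 to 0.10, −0.31 to 0.0795 and −0.40 to 0.0802.

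The number of the 10 genes called, with 1 library left out, was 5 to 7 for LPS with control siRNA. It was 4 to 7 for SF3a1 siRNA without LPS and 5 to 7 for SF3a1 siRNA under LPS. For LPS with SF3a1 siRNA it was 3 to 5, and in the interaction 1 to 2. The 4 came without replicate 1 or 3 of SF3a1 siRNA without LPS, and the 3 without replicate 2 or 3 of that group or replicate 1 or 2 of SF3a1 siRNA with LPS. The 1 left in the interaction was Bcl2l1, and the libraries that decided Bmf are given with that gene. The share of all genes called in these 5 comparisons with 1 library left out ran from 26.2 to 32.9%, 25.4 to 36.9%, 31.1 to 39.3%, 6.88 to 13.1% and 1.79 to 4.66%. With the replicate block, bins of Mcl1, Bcl2l1 and Bcl2l11 called numbered 1 for LPS with control siRNA, 2 for SF3a1 siRNA alone and 1 for SF3a1 siRNA under LPS, where 0 were called without it. By limma 1 was called for LPS with control siRNA, and 0 to 1 with 1 library left out. The block also gained calls of Bak1, Bbc3 and Bcl2l11 and of bins 2 and 3 of Bbc3, which are given with those genes. It ended no call of the 10 genes and none of the 92 list gene calls, of which 65 held in every alternative and 27 were lost in at least 1. Over all genes the block called 3115 for LPS with SF3a1 siRNA (1598 without it) and 1756 in the interaction (520 without it, 966 by DESeq2, 930 with no filter). Over all bins it called 285, 2113, 1793, 105 and 2 in the 5 comparisons, against 123, 961, 756, 39 and 0, and limma called 21 in the fourth and 1 in the last. The cause of these changes was not tested. The share of all bins called ran from 0.0307 to 0.105%, 0.347 to 0.706%, 0.0632 to 0.591%, 0.017 to 0.0279% and 0 to 0.002% with 1 library left out. Low counts limit the bins: Bcl2l11 had as few as 512 bin counts in a library.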

Other observations

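The genes whose levels ran most like those of Mcl1, Bcl2l1 and Bcl2l11 were read from log2 CPM over the 12 libraries among the 9303 genes that averaged 10 CPM or more. These correlations are a description over libraries that share groups and treatments. For Mcl1 they were Il4i1 (Pearson r = 0.976), an amino acid oxidase of activated antigen-presenting cells, Bcl2a1d (0.975) and the kinase gene Prkcd (0.969). For Bcl2l1 they were Plaur (0.987), the urokinase receptor, the chemokine gene Ccl3 (0.986) and Errfi1 (0.982), a feedback inhibitor of EGF receptor signalling. For Bcl2l11 they were Parp3 (0.965), Plekhn1 (0.960) and Tmem106a (0.947).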
